A study of Mus musculus with 27 samples.

Results

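Accessible chromatin was compared between cells given Mef2c together with Tbx5 (MT) and cells given Tbx5 alone (T). The comparison rests on the 3 MT and 3 T libraries, chosen by their labels, out of 24 libraries with counts and 27 labelled samples, and it covers all 20494 of 30815 regions that had enough counts to be tested. The assay was ATAC-seq, in which a transposase cuts and tags DNA wherever chromatin leaves it exposed, so that a region gathers more counts the more accessible it is. The cells were a fibroblast line from the hearts of newborn Cd-1 mice, made to divide indefinitely with the large T antigen and carrying alpha-MHC-GFP, a fluorescent reporter of a cardiac myosin promoter. Factors were delivered by retrovirus and nuclei were taken at day 2 without sorting, so cells with and without each virus were measured together. Both MT and T were cultured with sb431542, an inhibitor of TGF-beta receptors, and xav939, an inhibitor of Wnt signalling, and the 2 groups differ by label only in Mef2c. Levels in the other groups with both inhibitors are given where they bear on this comparison, namely Mef2c alone (M), Gata4 alone (G), Gata4 with Mef2c (GM), Gata4 with Tbx5 (GT) and all 3 factors (GMT). The control received a dsRed virus and no inhibitor. Each group had 3 libraries, called biological replicates by the submitters with no statement of what separates them, so p-values measure the spread between these libraries. They all came from 1 cell line and 1 time point.

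Mef2c is a MADS-box transcription factor that binds A/T-rich elements and drives muscle genes in heart and skeletal muscle. Tbx5 is a T-box transcription factor needed for the formation of the heart chambers and the conduction system. With the zinc-finger factor Gata4, both are used to turn fibroblasts towards a cardiomyocyte-like state, and a change in accessibility is among the early steps of such a conversion. Regions are named here by their position in the mouse build mm9, which the submitters' notes name. An annotation and a genome sequence of that build were not used here, so regions carry no gene names, markers of other cell types were not measured, and no region sequence is printed. In bulk samples such as these, more cells with an open region and a more open region in each cell cannot be told apart.

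Total counts were 1704896, 626225 and 428197 in MT replicates 1, 2 and 3, and 382527, 676886 and 551814 in T. Spearman correlations across the tested regions ran from 0.803 to 0.911 within MT, from 0.833 to 0.883 within T and from 0.696 to 0.82 between the groups. MT replicate 3 and T replicate 3 had the highest correlation between the groups and lay nearest to the control, at mean correlations of 0.751 and 0.737 with the control libraries, against 0.57 to 0.629 for the other MT and T libraries. Responses were also read from regions picked in libraries of other groups. Over the 1183 regions higher in GM than in G, the median level on the log2 scale of CPM (counts scaled to library size, prior count 2) was 5.02, 4.97 and 4.71 in MT and 3.09, 3.01 and 3.60 in T. Over the 2467 regions higher in GMT than in GM, which differ by Tbx5, it was 5.30, 5.31 and 4.84 in MT and 5.87, 5.46 and 5.05 in T. MT replicate 3 was the lowest MT library on both lists, and T replicate 3 was the highest T library on the first and the lowest on the second. GT replicate 1 lay within the range of G on the second list, 3.28 to 3.71, at 3.67 against 5.35 and 4.92 in GT replicates 2 and 3, and means of GT below include it.

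Adding Mef2c to Tbx5 raised 1085 regions (5.29% of those tested) and lowered 238 (1.16%) by edgeR's quasi-likelihood test at an adjusted p under 0.05, which is 6.46% called in either direction. Among the regions that rose, the median log2 fold change was 2.23, and 682 rose by 4-fold or more. The regions that fell had a median of -1.61, and 47 of them fell by 4-fold or more. Over all regions tested the median was 0.065. The regions that rose were at a low level with Tbx5 alone, with a median of 8.04 CPM in T and 39.4 CPM in MT, and the control had 10.8 CPM. In 8 of them no T library had a count, and in 108 the T libraries held 3 counts or fewer in all, where the fitted fold depends on the prior count. Setting those 8 to the limit that 3 counts over the group allow left the median at 2.23. A change in 8 of 1085 values can hardly move a median, and the rest of the 108 were left as fitted. The regions that fell were well open in T, with a median of 95.4 CPM, and stood at 28.8 CPM in MT. Scaled to width, the regions that rose had 25.2 CPM per kb in T and those that fell 286, against 73.5 over all regions tested. In 1047 of the regions that rose and 215 of those that fell, the libraries of the groups did not overlap, which holds for 16.4% (MT higher) and 8.56% (MT lower) of all regions tested.

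**Figure D1:**
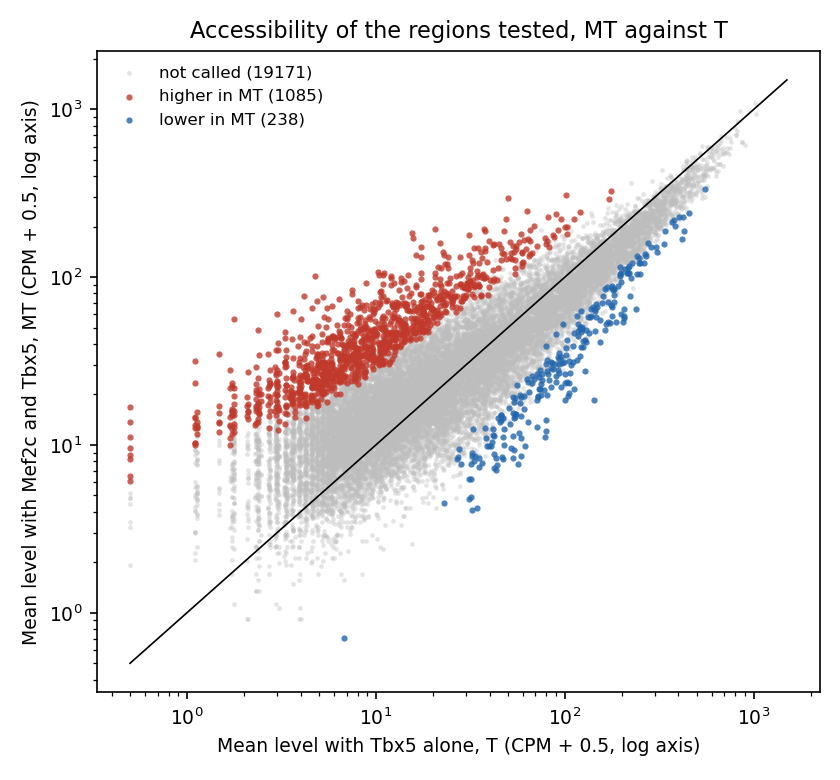
Mean level of each tested region in T (horizontal) and MT (vertical) in CPM plus 0.5 on log axes, each mean over 3 libraries. The 1085 regions that rose (red) lie mostly at low levels in T and the 238 that fell (blue) at high levels in T.

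The number of regions that passed depended on single libraries. Leaving out a T library gave 403 higher without T replicate 1, 295 higher and 35 lower without T replicate 2, and 799 lower without T replicate 3. Leaving out an MT library gave 622 higher and 122 lower without MT replicate 1, 462 and 77 without MT replicate 2, and 130 lower without MT replicate 3. Dropping all libraries numbered 1, 2 or 3 gave 315, 78 and 562 higher and 110, 3 and 58 lower, and without GT replicate 1 in the fit 398 lower. Without MT replicate 3 and T replicate 3 together, the libraries nearest to the control, 813 were higher and 280 lower. Rises were 82% of the regions called, and this share moved with the libraries and the scaling. Leaving out T replicate 3 gave the lowest share, 56.3% (1031 higher), and dropping all libraries numbered 2 the highest, 96.3%. It was 71.7% by RLE size factors (951 higher, 376 lower), 64.4% by loess offsets (779 and 430) and 89.1% by total counts (1248 and 152). Deviations of MT and T libraries from their group means correlated within numbers 1 and 3 and only weakly within number 2. A replicate block in a fit of only these 6 libraries gave 1661 higher and 773 lower, against 898 and 253 in the same libraries without it. With the 6 libraries thinned to 1 depth, 648 were higher and 197 lower.

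Rises were ranked by log2 fold change among the 487 with libraries that did not overlap and a mean level not below the median of all regions. The leading regions went from a few counts in T to clear signal in every MT library. The first was chr2:84624028-84624336, with 44.5, 55.6 and 44.7 CPM in MT and 0, 1.79 and 3.80 CPM in T. Its T libraries held 3 counts in all against 122 in MT, a count ratio of 22.4 (95% interval 7.47 to 110, counting error only), and the fitted log2 fold change was 4.42 ± 0.63 (SE, adjusted p = 6.68e-05). This region was more open in the control, at 17.4 ± 4.21 CPM (SD, n = 3), than in T, and M stood at 65.2 ± 2.93 CPM. The next, chr15:27554910-27555280, had 123, 104 and 77.7 CPM in MT and 0, 7.18 and 5.70 CPM in T (log2 fold change 4.37 ± 0.51, adjusted p = 3.01e-06). Here the control was as low as T, at 8.21 ± 2.75 CPM, so the region was open in the groups with Mef2c, with 89.1 ± 21.4 CPM in M and 81.6 ± 27 CPM in GMT.

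Rank 3 was chr15:59419636-59420074, with 132, 69.1 and 25.9 CPM in MT and 2.93, 1.79 and 9.49 CPM in T (log2 fold change 3.97 ± 0.63, adjusted p = 0.000213). MT replicate 3 was the lowest MT library there and T replicate 3 the highest T library. Rank 4, chr4:64237548-64237799, had 92.8, 74.1 and 49.4 CPM in MT and 0, 3.59 and 9.49 CPM in T (log2 fold change 3.88 ± 0.62), again with MT replicate 3 lowest in MT and T replicate 3 highest in T. Rank 5, chr9:101101167-101101563, had 51.5, 59 and 61.2 CPM in MT and 8.79, 1.79 and 3.80 CPM in T (log2 fold change 3.67 ± 0.55, adjusted p = 8.98e-05), so replicate 3 did not stand lower in every region.

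The smallest spread in MT among these 10 was at rank 6, chr15:27548996-27549292, which had 184 CPM in each of the 3 MT libraries and 11.7, 16.1 and 17.1 CPM in T (log2 fold change 3.57 ± 0.36, adjusted p = 2.38e-07). It lies within 10 kb of the region at rank 2. All 4 groups with Mef2c stood close together there, at 197 ± 22.5 CPM in M, 185 ± 21.8 in GM, 184 ± 0.034 in MT and 163 ± 19.7 in GMT. The groups without it were at 15 to 23.4 CPM. Rank 7, chr3:132998051-132998402, had 175, 150 and 188 CPM in MT and 23.5, 7.18 and 15.2 CPM in T (log2 fold change 3.56 ± 0.49, adjusted p = 4.21e-05).

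The remaining regions of the first 10 were chr2:48254008-48254321, chr8:60019773-60020104 and chr14:101931556-101931957, with log2 fold changes of 3.53, 3.52 and 3.46. Their lowest MT libraries had 65.9, 28.3 and 80.1 CPM and their highest T libraries 8.97, 11.4 and 14.7 CPM. All 10 were also open in M, at 44.5 to 236 CPM on average.

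**Figure D2:**
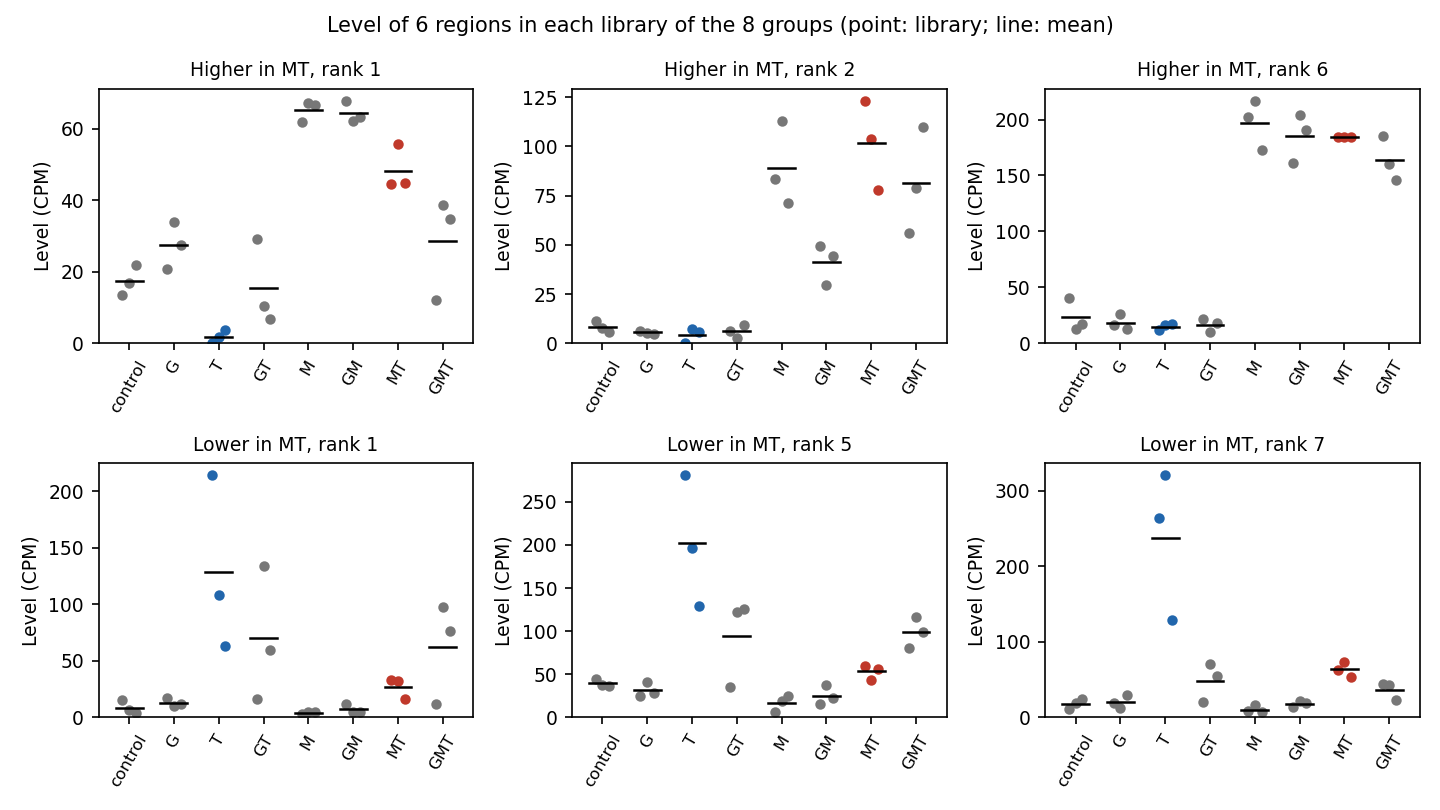
Level in CPM (vertical, from 0) of 6 regions in each of the 24 libraries, by group (horizontal), with MT in red and T in blue and a line at each group mean. The upper regions (ranks 1, 2 and 6 among rises) are high in M and MT, and the lower regions (ranks 1, 5 and 7 among falls) are highest in T and at an intermediate level in MT.

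Falls were ranked in the same way among 116 that passed these limits. The 10 with the largest log2 fold changes were at a high level with Tbx5 alone and at 4.41 to 39.7 CPM in the control. At chr14:66890247-66890740, ranked first, MT had 33, 32 and 16.5 CPM and T 214, 108 and 62.7 CPM (log2 fold change -2.16 ± 0.56, adjusted p = 0.016). T replicate 3 was the lowest T library, and the control and M were at 8.63 ± 6.18 and 4.32 ± 0.92 CPM. At chr15:58210066-58210327, ranked next, MT had 18.4, 32 and 14.1 CPM and T 149, 89.7 and 47.5 CPM (log2 fold change -2.12 ± 0.57, adjusted p = 0.0209). In this region MT was near the control, at 13.4 ± 7.8 CPM.

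The steadiest of these falls, judged over the alternative settings, was at chr8:130462970-130463556, ranked 5, with 59.7, 43.8 and 56.5 CPM in MT and 281, 196 and 129 CPM in T (log2 fold change -1.90 ± 0.39, adjusted p = 0.0027). It lost its call in 1 of 21 settings, the fit that dropped all libraries numbered 2 (adjusted p = 0.107). At chr9:44499426-44499981, ranked 7, MT had 62.9, 74.1 and 54.2 CPM and T 264, 321 and 129 CPM (log2 fold change -1.89 ± 0.39, adjusted p = 0.00286). All 3 MT libraries there were above the control, which had 18.4 ± 6.8 CPM. At chr5:147579437-147579828, ranked 9, MT had 23.5, 45.5 and 25.9 CPM and T 135, 111 and 101 CPM (log2 fold change -1.88 ± 0.47, adjusted p = 0.0125), so the T libraries were close to each other.

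The other falls among the first 10 were chr7:151917051-151917629, chr11:109422148-109422384, chr1:172386762-172387203, chr13:34301764-34302260 and chr6:83523907-83524532. Their log2 fold changes were -2, -1.94, -1.90, -1.89 and -1.87, and their T means 102, 99.2, 84.4, 71.9 and 153 CPM against 23.2, 26, 21.6, 18.7 and 40.5 CPM in MT. The folds were 3.65 to 4.45 for these 10 falls and 11 to 21.5 for the 10 rises above. Outside the limits on level and overlap the log2 fold changes reached -3.58 and 6.62. Each of these 10 falls lost its call in at least 1 setting, and all 10 lost it when the libraries numbered 2 were dropped. The 10 rises were called in all 21 settings in which they were refitted.

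Called regions were also ranked by level over MT and T together. This choice disfavours a region low in either group, and so large folds. The regions that rose with the highest levels over MT and T were chr3:93400961-93401543 (log2 fold change 0.89 ± 0.28, adjusted p = 0.0451), chr5:116872801-116873397 (log2 fold change 0.79 ± 0.22, adjusted p = 0.0283) and chr15:28088658-28088901 (log2 fold change 1.02 ± 0.25, adjusted p = 0.0115). At the second of these MT had 290, 342 and 250 CPM, T 170, 178 and 163 CPM and the control 248 ± 18.1 CPM, and GT stood as low as T, at 165 ± 33.7 CPM. At the first, MT had 327 ± 42.8 CPM, T 175 ± 28 CPM and the control 268 ± 34.5 CPM. The falls with the highest levels were chr14:61791624-61792128, chr10:80085026-80085449 and chr8:123061107-123061482, with log2 fold changes of -0.72, -0.91 and -0.89. At chr10:80085026-80085449, T replicate 2 had 707 CPM and the other T libraries 407 and 243 CPM, against 245, 256 and 224 CPM in MT. These 6 calls were each lost in 6 to 15 settings, and that at chr14:61791624-61792128 also under the replicate block (adjusted p = 0.0534 with all groups, 0.069 with only MT and T).

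To see whether the same regions moved when Mef2c was added to other cells, the fold changes were read in comparisons that share no library with MT and T. These were GM against G, GMT against GT, and M against the control, and in the last the inhibitors differ together with Mef2c. About as many of the regions that rose with Tbx5 passed with Gata4 as did not. Of the 1085, 1051 (96.9%) had a positive log2 fold change in GM against G, with a median of 1.5, and 553 (51.0%) were called higher, against a background of 5.77% of all regions tested. In GMT against GT, 532 (49.0%, background 5.68%) were called higher with a median of 1.6. In M against the control 699 (64.4%, background 9.67%) were, with a median of 1.8. The shared regions made up 46.7%, 45.7% and 35.3% of the higher regions of those comparisons. In all 3 at the same time, 322 were called higher (29.7%, background 2.12%), and in none of them 211 (19.4%, background 86.6%). Of the 1085, 1 was called lower in M against the control (0.0922%, background 6.47%). None was called lower in GM against G (background 1.5%) or in GMT against GT (background 1.28%). Since the list was picked in MT against T, its own median is raised by that choice.

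Read the other way, the 1183 regions higher in GM than in G had a median log2 fold change of 1.7 in MT against T, and 553 (46.7%) were called higher there and none lower. Of all regions tested, 5.29% were called higher and 1.16% lower. Those below 0 were 13 (1.1%), against 46.7% of all regions tested. Their median was 1.5 to 2.1 in all refits. Across all 20494 regions the log2 fold changes of MT against T and GM against G correlated at 0.55 (Pearson) and 0.45 (Spearman). The values come from separate libraries, but each region keeps its width, base composition and mean depth in both. The counts called in the other comparisons also moved with single libraries. In GM against G, 1490 regions were called (7.27%). Leaving out G replicate 1 or 3 gave 597 or 358, leaving out GM replicate 1 gave 662, and dropping all libraries numbered 1 or 3 gave 328 or 72. In GMT against GT there were 1427 (6.96%). Leaving out GT replicate 1 gave 704, leaving out GMT replicate 2 or 3 gave 587 or 452, and dropping all libraries numbered 2 or 3 gave 144 or 194. For M against the control there were 3308 (16.1%). Leaving out control replicate 2 or 3 gave 2110 or 1757, leaving out M replicate 2 gave 1923, and dropping all libraries numbered 2 or 3 gave 1197 or 1104.

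**Figure D3:**
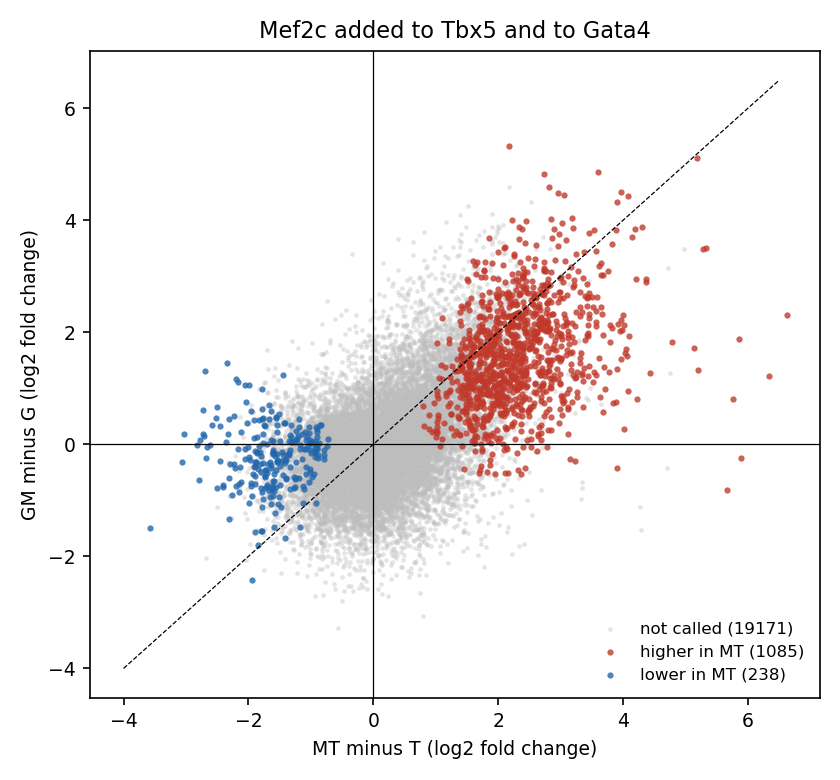
Log2 fold change on adding Mef2c to Tbx5 (MT minus T, horizontal) and to Gata4 (GM minus G, vertical) for the 20494 regions tested, with equality as a dashed line. Regions that rose in MT (red) lie mostly above 0 on the vertical axis, and those that fell (blue) lie around 0.

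Several regions rose with large folds in MT against T, GM against G and GMT against GT. The first, ranked by its smallest fold, was chr1:156971562-156972064, with 62.3, 74.1 and 30.6 CPM in MT and 0, 0 and 3.80 CPM in T, from 155 and 2 counts in all (count ratio 42.6, 95% interval 11.6 to 355). Its log2 fold change was 5.11 in GM against G (adjusted p = 1.17e-05) and 4.64 in GMT against GT (adjusted p = 9.54e-05). Groups without Mef2c stood at 1.27 to 2.72 CPM there and groups with it at 47.9 to 79.6 CPM. The next was chr13:83802070-83802270, with 80, 35.4 and 51.8 CPM in MT and 2.93, 0 and 7.60 CPM in T (log2 fold change 3.96 ± 0.78, adjusted p = 0.00188), and 117 ± 72.1 CPM in M. Groups with Mef2c stood at 55.7 to 117 CPM in this region and groups without it at 3.22 to 7.96 CPM. Its position relative to the Mef2c gene was not looked up, since no annotation was used. Whether its counts hold reads of the viral Mef2c sequence, rather than accessible chromatin, was not tested. At chr14:100007157-100007464, MT had 62.9, 69.1 and 63.6 CPM and T 2.93, 1.79 and 7.60 CPM (log2 fold change 3.9 ± 0.49, adjusted p = 9.98e-06), with 4.32 in GM against G and 3.41 in GMT against GT on the log2 scale. The remaining regions of this rule were chr4:64237548-64237799 and chr2:48254008-48254321, described above. Of the 1085, 375 (34.6%, background 2.69%) were called higher in both GM against G and GMT against GT. Of the 238 that fell, 0 were called lower in both. Only 53 of all regions tested (0.259%) were, a share at which a list of 238 would hold few or none.

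The difference between backgrounds was tested directly, as the change in MT minus T less the change elsewhere. Against GM minus G, edgeR's quasi-likelihood test called 0 regions, with 1441 of 20494 at an unadjusted p under 0.05, and DESeq2 also called 0. With no difference at any region, a share of about 0.05 would lie under that p. Against GMT minus GT, edgeR's test called 0, with 2214 of 20494 at an unadjusted p under 0.05. DESeq2 called 0 there as well, but without GT replicate 2 edgeR called 21. These counts do not show that the changes were equal, since the test rests on 3 libraries in each of 4 groups. Against M minus control, which brings in the inhibitors, 22 regions were called (0.107%), 18 higher (0.0878%) and 4 lower (0.0195%). Of these, 4 were among the 1085 that rose in MT and none among the 238 that fell. Over all regions tested, 5.29% rose and 1.16% fell. MT minus T is part of this contrast, so the overlap is a description. The 22 became 0 under RLE size factors, total counts, loess offsets and the stricter filter, 44 with the replicate block over all groups, 131 by DESeq2 and 305 with only the 4 groups in the fit. Leaving out any 1 library of the control or M, T replicate 1 or 2, or MT replicate 2 or 3 gave 0. It was 213 without T replicate 3, 177 without MT replicate 1 and 49 without GT replicate 1, and dropping all libraries numbered 1, 2 or 3 gave 79, 0 and 0.

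Few of the regions that fell passed in the other comparisons. Of the 238, 7 were called lower in GM against G (2.94%, background 1.5%), 2 in GMT against GT (background 1.28%) and 18 in M against the control (background 6.47%). Their medians there were -0.19, -0.12 and -0.26 on the log2 scale, and 214 (89.9%) were called lower in none, as were 91.5% of all regions tested. The test of a difference gave medians of -1.3 against GM minus G and -1.4 against GMT minus GT over the 238, with no region passing after adjustment. MT and T chose these regions, so those medians are a description. The groups with Tbx5 stood above those without it. The median over these regions was 14.7 CPM in the control, 16.1 in G, 10.7 in M and 12.5 in GM, against 34.3 in GT, 34.0 in GMT, 28.8 in MT and 95.4 in T. T, which was part of the choice, had the highest mean of the 8 groups in 225 of the 238, against 4048 of all 20494 regions tested. GT and GMT were not in the contrast, but their libraries shared in the filter, the scaling and the estimated spread.

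By library, the median over the regions that fell was 30.2, 30.3 and 25.9 CPM in MT and 116, 105 and 58.9 CPM in T, so T replicate 3 was nearest to MT. In GT it was 17.1 CPM in replicate 1, the library that lay with G, and 51.3 and 36.8 CPM in replicates 2 and 3. For the regions that rose, it was 41.3, 42.1 and 30.6 CPM in MT, 43.4 to 45.1 CPM in M, 27.3 to 31.6 CPM in GM and 24.1 to 35.7 CPM in GMT. The groups without Mef2c ran from 5.86 to 13.4 CPM on this list. Over all regions tested the median by library was 22.87, 23.58 and 23.55 CPM in MT, not far below MT on the list of falls. In GMT replicate 1 it was 24.08 CPM over all regions tested and on both lists. MT had a higher mean than M in 420 of the 1085.

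**Figure D4:**
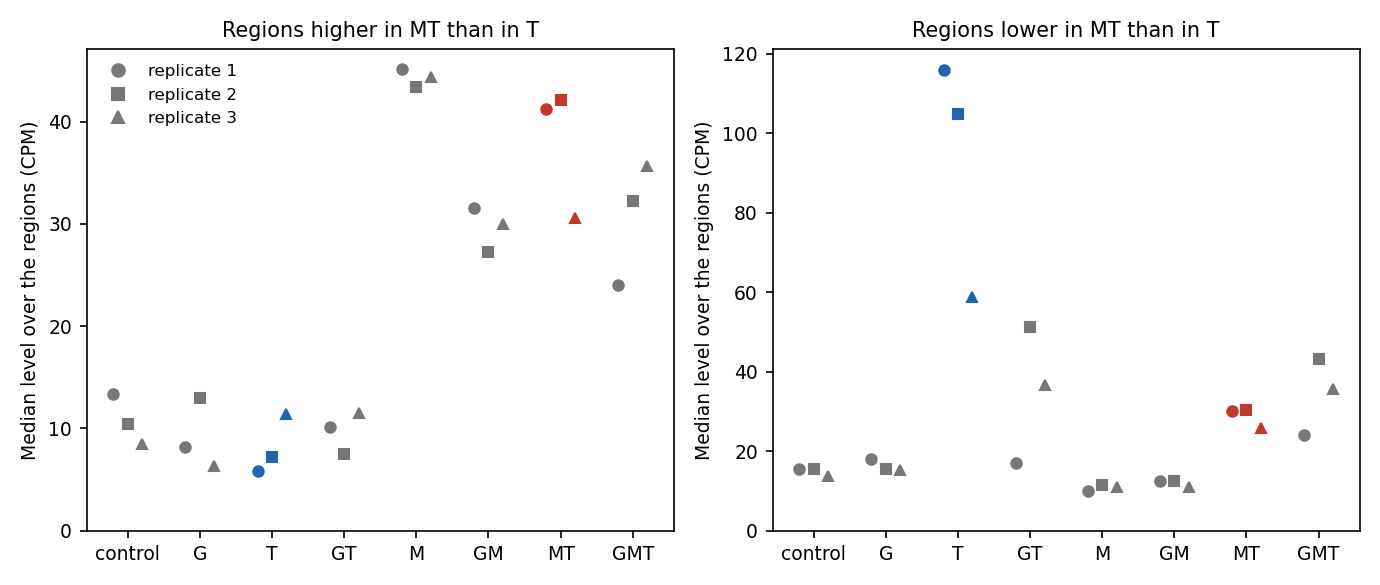
Median level in CPM (vertical, from 0) over the 1085 regions that rose (left) and the 238 that fell (right) in each library, by group (horizontal) and replicate (marker), with MT in red and T in blue. MT and T chose the lists, and the other groups are read beside them. Groups with Mef2c are above the rest on the left, and groups with Tbx5 other than GT replicate 1 are above the rest on the right.

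Regions that respond to Tbx5 were then picked by a contrast without MT and T, GMT against GM, which differ by Tbx5. The 2467 regions higher in GMT were 12% of those tested, of 13.7% called in either direction. In them the median level was 42.7 CPM in T and 34.0 CPM in MT, against 8.77 in M and 8.51 in the control. Their median log2 fold change in MT against T was -0.38, and 1663 (67.4%) lay below 0, against 46.7% of all regions tested. The median was -0.26 with total counts, -0.48 with RLE size factors, -0.56 with loess offsets and between -0.60, without T replicate 3, and -0.26 in all refits. Total counts moved the median of all regions tested to 0.17 and loess offsets to -0.045, from 0.065. Called lower in MT were 79 of them (3.20%, background 1.16%), which is 33.2% of the 238 that fell, and called higher were 84 (3.40%, background 5.29%). In the 348 regions lower in GMT than in GM, the median was 0.37. Of them, 13 were called higher (3.74%, background 5.29%) and 1 lower (0.287%, background 1.16%). These counts are small, and their difference from the background was not tested. Most single regions on these lists did not pass the test between MT and T.

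**Figure D5:**
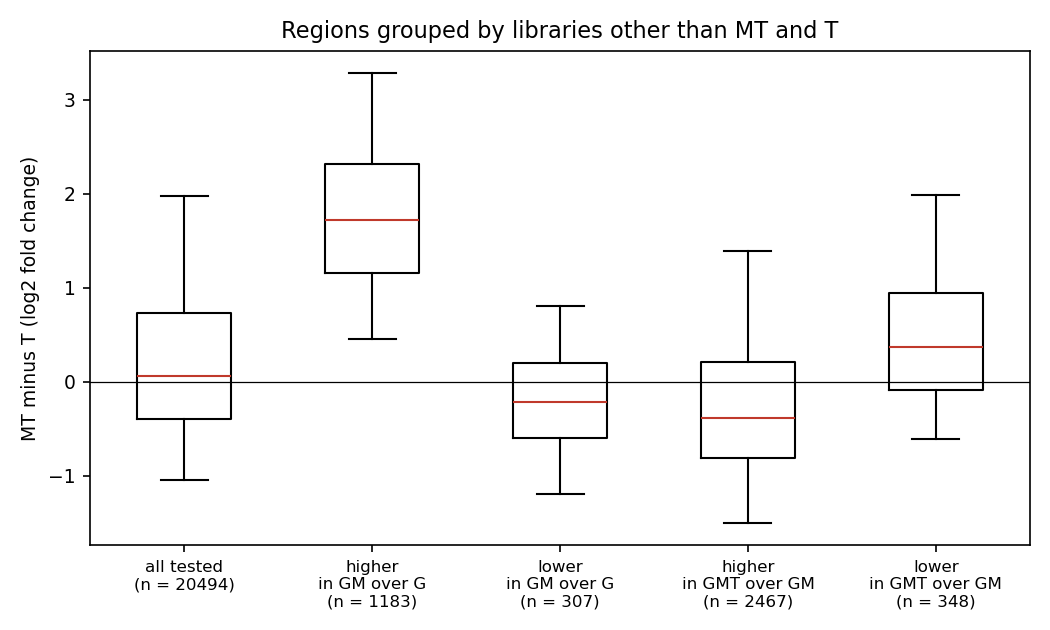
Log2 fold change of MT against T (vertical) for all regions tested and for regions grouped by comparisons without MT and T libraries (horizontal). Boxes give the quartiles, red lines the median and whiskers the range from percentile 5 to 95. Regions higher in GM over G have a median of 1.7 and regions higher in GMT over GM a median of -0.38.

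Regions that changed were wider than the rest, with a median of 308 bp for rises and 311.5 bp for falls against 261 bp for all tested. Of regions under 300 bp, 4.06% rose and 0.876% fell, and of those of 500 bp and over, 8.72% rose and 2.42% fell. Wider regions hold more counts, and the part of depth in this order was not tested. By the level in the control, in 4 classes of about equal size, 8.08% of the lowest class rose against 2.05% of the highest, while 1.37% and 1.27% fell. Across chromosomes the share that rose ran from 4.17% on chromosome 11 to 7.51% (26 of 346) on chromosome X, against 5.29% of all regions tested. None of the 346 on chromosome X fell, against 1.16% of all regions tested. Differences between chromosomes were not tested. Of the 1085 regions that rose, 77 (7.10%) had another such region within 10 kb, against 2.57% of all regions tested. Of the 238 that fell, 12 (5.04%) had another fall within 10 kb, against 0.678% of all regions tested.

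The 500 kb stretches with the most rises were looked up after the values were known. The first was chr16:87268081-87645073, where 8 of 15 tested regions rose, with log2 fold changes of 1.39 to 2.99, and 1 fell. The largest rises there were at chr16:87556512-87557068, with 100, 109 and 70.6 CPM in MT and 26.4, 10.8 and 1.90 CPM in T, and at chr16:87501605-87502341, with 118, 121 and 35.3 CPM in MT and 5.86, 7.18 and 22.8 CPM in T. The region that fell was chr16:87383384-87383894 (log2 fold change -1.12 ± 0.32, adjusted p = 0.0287), with 50.2, 64 and 82.4 CPM in MT and 188, 111 and 123 CPM in T. It lies within 10 kb of a region that rose, chr16:87387770-87387972 (log2 fold change 1.81 ± 0.50, adjusted p = 0.0252), so neighbouring regions changed in opposite directions. Of the 8 that rose, 6 were also called higher in GM against G, 7 in GMT against GT and 5 in M against the control. These shares were 51%, 49% and 64.4% among all 1085 rises, and 5.77%, 5.68% and 9.67% among all regions tested.

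The stretches chr5:67986171-68185993 and chr19:36338891-36764129 came next, with 5 rises each among 8 and 12 tested regions, and are not described further. Another stretch, chr15:27432877-27555280, held 4 rises among 6 tested regions, among them those ranked 2 and 6 above. At chr15:27467393-27467994, MT had 184, 182 and 80.1 CPM and T 32.2, 39.5 and 39.9 CPM (log2 fold change 2.00 ± 0.45, adjusted p = 0.00636). M was lower there than MT, at 31.2 CPM against 149 CPM on average, with 15.5 CPM in the control and 37.2 CPM in T, and the difference between M and MT was not tested. The 2 regions between did not pass the test and had under 6 CPM on average in MT and T. For falls, of which there were fewer, the stretch chr10:95800772-95965758 held 3 among 5 tested regions, with log2 fold changes of -1.61 to -1.18. It was tied with chr4:133369206-133843364 (3 among 6) and chr10:79727439-80218233 (3 among 21).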

How the data were processed

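Counts per region were deposited by the authors as 1 table, raw and not normalised, with totals that differ between libraries. The submitters' processing notes name Bowtie2, Picard, featureCounts and the mouse build mm9, without versions. The sources used here do not give how regions were defined or what was counted as 1, and counts from virus-borne factor sequence, if any, were not separated. The other numeric column deposited by the authors is the width of each region in bp. The 3 samples of dsRed cells with inhibitors were not analysed here.

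The tests were run with edgeR 4.0.16 and limma 3.58.1 in R 4.3.3, after filterByExpr (minimum count 10, minimum total 15) and TMM scaling. The 8 groups were fitted together, since 3 libraries a group leave few degrees of freedom (square root of the common dispersion 0.29), and tested by the quasi-likelihood test with Benjamini-Hochberg adjustment over the 20494 regions within each comparison. SE is the log2 fold change divided by the square root of F. CPM are on the TMM scale. The test was tried on simulated data.

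Named regions are, in each direction, the 10 called regions of largest log2 fold change with non-overlapping libraries and a mean level not below the median, the 3 called regions of highest level over MT and T, up to 5 called alike in MT against T, GM against G and GMT against GT, and up to 3 per interaction. The members and lists were chosen with earlier results of these data known. Lists of cardiac, fibroblast and marker genes and motif counts were not used, since no mm9 annotation or genome was at hand. Same-numbered MT and T libraries had correlated deviations from their group means (0.227, 0.103 and 0.349 for numbers 1, 2 and 3). MT replicate 1 and T replicate 2 correlated at 0.158, above the value for number 2. The other pairs of unlike number ran from -0.365 to -0.0136. The pairing comes from the data, since the labels give only the numbers. Counts set precision, and intervals cover counting error only. DESeq2 1.42.0 and the other alternatives are given in the closing section.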

Additional observations from a re-analysis of the deposited data

Results flagged for a closer look

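The change on adding Mef2c differed between cells with Tbx5 and the dsRed control at 22 regions, by the test of the difference of the changes (edgeR, adjusted p under 0.05), where M and the control differ by the inhibitors as well. The difference was 4.42 on the log2 scale at chr6:122639898-122640102, where the control had 116 ± 13.7 CPM (SD, n = 3), M 9.83 ± 3.18, T 10.2 ± 7.76 and MT 20.5 ± 14. At chr5:72641179-72641570 the difference was 4.23, with 199 ± 19.9 CPM in the control, 15.3 ± 7.94 in M, 19.7 ± 20 in T and 33 ± 25.3 in MT, and at chr13:115050742-115050965 it was 3.64. In these 3 regions M and T were both low, and MT against T did not pass the test. Replicate 3, nearest to the control by its correlations, was the highest MT and the highest T library in each of them. Without the libraries numbered 3 the differences at chr6:122639898-122640102, chr5:72641179-72641570 and chr13:115050742-115050965 were 4.58, 5.01 and 3.5, and without MT replicate 3 they were 3.79, 3.49 and 2.84, and none of these passed after adjustment (adjusted p = 0.176 to 0.275, edgeR).

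The largest negative difference was -4.04 at chr16:86310043-86310507, where M had 98.5 CPM, the control 4.67, T 12.7 and MT 15.3. It is named after its values were seen, since its mean level was below the median. The others were -3.36 at chr8:89283057-89283278, -2.97 at chr3:135179890-135180131 and -2.56 at chr8:93463681-93464386. At chr3:135179890-135180131 the control had 7.3 ± 5.26 CPM, M 78.2 ± 8.51, T 92.9 ± 32.9 and MT 127 ± 40, so each factor alone stood above the control and MT above T by less than the spread. None of these 7 regions passed in MT against T, and none of the 22 was called under RLE size factors, total counts or loess offsets.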

How the results depend on the processing

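No named region of MT against T changed direction in any alternative. The adjusted p under 0.01 used the same fit, and the stricter filter and the fit of only MT and T tested 12438 and 12030 regions. For MT against T (1085 higher, 238 lower), an adjusted p under 0.01 gave 422 and 28, and a minimum fold of 1.5 gave 519 and 37. The regions lower were 376 with RLE size factors, 152 with total counts, 430 with loess offsets and 375 with DESeq2. The replicate block over all groups gave 1044 higher and 234 lower, with 1223 of the 1323 calls shared. The block with only MT and T gave 1661 and 773, and thinning gave 648 higher, both chosen after seeing the data, as was leaving out the libraries numbered 3 of MT and T. Leaving out libraries gave 78 to 1252 higher and 3 to 799 lower.

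The calls in GM against G, GMT against GT and M against the control were 560, 484 and 1747 at an adjusted p under 0.01, and 685, 611 and 2072 at the minimum fold. The stricter filter gave 972 in GM against G and 2049 in M against the control. With only the compared groups in the fit there were 179 in GMT against GT and 5257 in M against the control. Left-out libraries gave 72 to 2157, 144 to 1774 and 1104 to 3807. For MT minus T against M minus control (22), there were 0 at the stricter p, the minimum fold, RLE, total counts, loess and the stricter filter, 44 with the replicate block over all groups, 305 with only those groups and 131 by DESeq2. Left-out libraries gave 0 to 213 there, and 0 to 21 against GMT minus GT. The cause of these changes was not tested. Apart from the values given here and in the report, the block changed no other call of a named region. Depth limits what a low region can show, since in 108 of the regions that rose T held 3 counts or fewer in all.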

Other observations

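Of the 22 regions at which MT minus T differed from M minus control, 4 also rose in MT against T. At chr15:103224074-103224290 the means were 63.2 CPM in MT, 14.2 in T, 64.8 in M and 86.3 in the control, and at chr8:85492157-85492359 they were 95.6, 32.1, 70.7 and 101 CPM. At chr15:25533088-25533288 they were 23.6, 6.91, 7.63 and 28.9 CPM. The remaining region, chr2:172101558-172102383, had 237 CPM in MT, 89.9 in T, 127 in M and 178 in the control. In these 4 regions T was below the control, and MT was nearer to the control than T was. They were chosen after their values were seen, and MT and T are part of the choice.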
